A study of Mus musculus with 8 samples.

Results

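The transcription factor genes Bhlhe40 and Nfil3 and 8 genes of the circadian clock were compared in regulatory T cells with and without Raptor. The 10 genes were Bhlhe40, Bhlhe41, Nfil3, Dbp, Tef, Per1, Per2, Cry1, Nr1d1 and Nr1d2. The set was chosen from the genotype comparison itself, because Bhlhe40 was higher and Nfil3 lower without Raptor, with the other 8 added as clock genes. The differences between genotypes are therefore given for these genes as a description, with a standard error (SE) and no p-value. Of the 10 genes, 9 had at least 1 probe set (a group of probes for 1 transcript) named for that gene alone, with 13 such probe sets in total, out of 17097 genes with one on the array. Nr1d1 was not analysed here for lack of such a probe set. Where a gene had several, the brightest by mean over the 8 arrays gave the main value. A gene was tested if its value exceeded the 40th percentile of all probe sets on at least 4 arrays, a level of 4.69 to 4.81, and 8 of the 10 genes and 11413 genes in all passed.

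The samples were freshly sorted CD4+CD25+ T cells of C57Bl/6J mice, taken from peripheral lymph nodes and spleen, 4 from wild-type mice (WT) and 4 from CD4(cre)Raptor(fl/fl) mice (RaptorKO), each measured on 1 array as log2 intensity. In the RaptorKO mice a Cre recombinase under Cd4 control removes Raptor, the scaffold of the growth-regulating kinase complex mTORC1, from developing T cells in general and so not from regulatory T cells alone. The labels do not say whether WT mice carried Cre or the floxed allele, nor the age of the mice or the time of day at which cells were taken, and whether each sample came from its own mouse is not stated either. The p-values below therefore rest on sample-to-sample spread, part of which may be technical. CD25 also appears on recently activated conventional CD4 T cells, which this sort does not remove.

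The circadian clock is a transcriptional feedback loop. CLOCK and BMAL1 (gene Arntl) bind E-box sequences and switch on the Per and Cry genes, whose proteins then block CLOCK and BMAL1. In a second loop the nuclear receptors REV-ERB-alpha and -beta (Nr1d1, Nr1d2) repress, and the ROR receptors activate, genes with a ROR element. BHLHE40 and BHLHE41 (DEC1, DEC2) are repressors that bind E-boxes, while NFIL3 (E4BP4) represses at D-box elements that the activators DBP and TEF also bind. In lymphocytes BHLHE40 is known as an activation-induced regulator of cytokine genes, and NFIL3 is known for its need in natural killer and innate lymphoid cell development.

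The sequences upstream of the members' transcription starts are shown because BHLHE40 and NFIL3 act through short DNA elements that these genes are known for. The window was the 250 bases before each start in RefSeq's mouse annotation (GRCm38.p6), available for 8 of the 10 genes in 10 windows, Tef and Per1 having 2 starts each; Bhlhe40 and Per2 were not analysed here. The E-box CACGTG lay in 5 of the 10 windows and in 4 of the 8 genes, both Tef windows included. Of all 32841 windows of this length in the annotation, 6.02% held it. The genes were picked as clock genes known for such elements, and the windows were not matched for G and C content. Nothing is therefore read from the higher share. Each E-box is printed with 12 bases on either side, 5′ to 3′ on the gene's strand, with the E-box in capitals. Each site lies upstream of the annotated start used.
Bhlhe41, chr6:145865556-145865585, minus strand: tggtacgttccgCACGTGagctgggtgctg
Tef, first start, chr15:81802534-81802563, plus strand: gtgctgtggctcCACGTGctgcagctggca
Tef, second start, chr15:81811264-81811293, plus strand: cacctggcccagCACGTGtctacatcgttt
Per1, first start, chr11:69098771-69098800, plus strand: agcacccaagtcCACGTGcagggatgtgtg
Cry1, chr10:85185097-85185126, minus strand: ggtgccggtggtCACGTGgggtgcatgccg

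The E-box began 153 bases before the Bhlhe41 start, 127 and 138 before the Tef starts, 166 before the Per1 start and 60 before the Cry1 start. The D-box TTANGTAA, the cyclic AMP response element TGACGTCA and the ROR element were searched on both strands too and were found in 0 of the 10 windows. Of all windows, 2.06%, 1.55% and 0.332% held them. The Nfil3 window holds none of the 4 motifs and is printed in lower case throughout; it is 81.6% G or C, against a median of 52.4% over all windows.
Nfil3, chr13:52981040-52981289, minus strand: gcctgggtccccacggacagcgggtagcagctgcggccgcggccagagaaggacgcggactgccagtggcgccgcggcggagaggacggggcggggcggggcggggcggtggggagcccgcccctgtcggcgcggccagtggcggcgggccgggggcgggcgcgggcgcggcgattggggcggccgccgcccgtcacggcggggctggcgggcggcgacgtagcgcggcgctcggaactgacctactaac

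Bhlhe40 was 2.79-fold higher in RaptorKO. It read 6.74, 6.49, 7.09 and 6.77 on the log2 scale in WT 1 to WT 4, and 8.24, 8.16, 8.40 and 8.21 in RaptorKO 1 to RaptorKO 4. The highest WT array and the lowest RaptorKO array lay 1.08 apart, so the groups did not overlap. Group means were 6.77 ± 0.25 (WT) and 8.25 ± 0.10 (RaptorKO; SD, n = 4), a difference of 1.48 (SE 0.13). By size this was rank 12 among the 11413 tested genes. A single probe set measured the gene, and all 8 values lay above the filter's percentile.

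Bhlhe41, the close relative of Bhlhe40, gave no measurable counterpart. Its brighter probe set spanned 4.11 to 4.23 in WT and 3.56 to 4.49 in RaptorKO, and its other probe set 3.43 to 3.69 over all arrays. All of these values lay under the filter's percentile, so no difference could be read for Bhlhe41 at this signal.

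Nfil3 was 2.29-fold higher in WT. It read 6.30, 6.35, 6.13 and 6.46 in WT 1 to WT 4, and 5.49, 4.68, 4.89 and 5.41 in RaptorKO 1 to RaptorKO 4. No RaptorKO array reached the lowest WT array, with 0.64 between the groups. Group means were 6.31 ± 0.14 (WT) and 5.12 ± 0.39 (RaptorKO; SD, n = 4), a difference of -1.19 (SE 0.17), rank 31 by size. The RaptorKO arrays were spread 2.82 times as widely as the WT arrays. RaptorKO 2 lay just under its filter percentile of 4.69 and RaptorKO 3 just above its percentile of 4.79, so the low end of the range is measured against dim signal. This gene too had a single probe set.

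**Figure D1:**
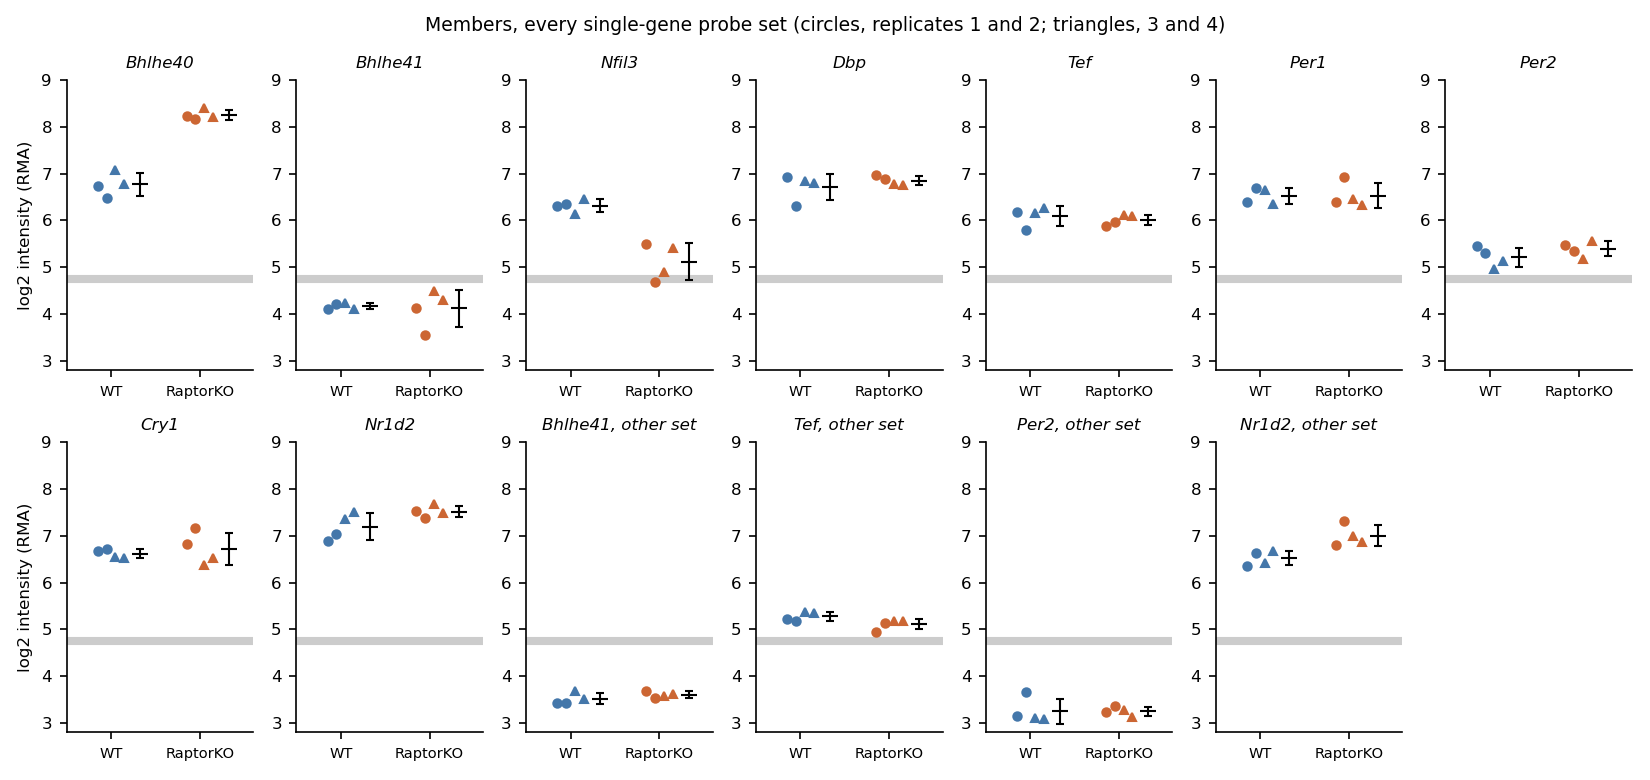
Log2 intensity (vertical axis) of each probe set named for a single member gene, in WT (blue) and RaptorKO (orange); each point is 1 array, circles are replicates 1 and 2 and triangles replicates 3 and 4, black bars give the mean and SD (n = 4), and the grey band is the range of the filter's percentile, 4.69 to 4.81. Bhlhe40 separates upward in RaptorKO and Nfil3 downward, Bhlhe41 and the other Per2 probe set lie under the band, and the remaining main probe sets overlap between genotypes.

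Bhlhe40 and Nfil3 were the 2 members called at a limma adjusted p under 0.05, 1 in each direction, where 1.96% of all tested genes were called (0.824% higher, 1.14% lower). They were also the 2 tested members whose groups did not overlap on the main probe set, against 8.82% of all tested genes (3.73% with RaptorKO higher, 5.09% with RaptorKO lower). Since this contrast chose both genes, nothing is read from these counts. The other 6 tested members differed by between -0.09 and 0.32, and 5 of the 6 differences were positive.

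Among the D-box activators, Dbp, a strongly rhythmic clock output gene in many tissues, read 6.93, 6.32, 6.84 and 6.79 in WT and 6.97, 6.89, 6.77 and 6.76 in RaptorKO. WT 2 was the lowest of the 8 arrays, and the other 7 lay within a narrow band. The difference was 0.13 (SE 0.13), and it changed to -0.0076 without WT 2. Tef, the related factor, read 6.19, 5.79, 6.17 and 6.26 in WT and 5.89, 5.96, 6.12 and 6.09 in RaptorKO, a difference of -0.09 (SE 0.12) with overlapping groups. The other Tef probe set, dimmer but above the filter on all arrays, read 5.28 ± 0.09 for WT and 5.11 ± 0.11 for RaptorKO (SD, n = 4). There the groups did not overlap but nearly touched, with the lowest WT array at 5.187 and the highest RaptorKO array at 5.175. On the main probe sets 8.82% of all tested genes did not overlap. Both Tef probe sets had the lower mean in RaptorKO, with a difference of -0.17 on the dimmer probe set.

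The Per and Cry genes, the negative limb of the core loop, overlapped between genotypes. Per1 read 6.40, 6.69, 6.65 and 6.35 in WT and 6.40, 6.92, 6.46 and 6.34 in RaptorKO, with a difference of 0.012 (SE 0.14). Its highest value was in RaptorKO 2 and its lowest in RaptorKO 4. Per2 read 5.44, 5.31, 4.97 and 5.13 in WT and 5.48, 5.35, 5.18 and 5.55 in RaptorKO, a difference of 0.18 (SE 0.13). Its other probe set lay under the filter on every array.

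Cry1 read 6.69, 6.72, 6.55 and 6.52 in WT and 6.82, 7.16, 6.38 and 6.54 in RaptorKO. RaptorKO held both the highest and the lowest of the 8 values, and its SD of 0.34 was 3.39 times that of WT, 0.10. The difference was 0.10 (SE 0.15), and without RaptorKO 2 it was -0.042. Of the 4 genes with an E-box in the window, 3 were tested. On their main probe sets Tef, Per1 and Cry1 differed by -0.09, 0.012 and 0.10. Whether BHLHE40 bound these E-boxes or altered these genes was not tested.

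Nr1d2, which encodes the repressor REV-ERB-beta, had the next largest difference after Bhlhe40 and Nfil3. It read 6.89, 7.03, 7.36 and 7.50 in WT and 7.53, 7.38, 7.68 and 7.49 in RaptorKO. The groups overlapped through WT 4, which exceeded RaptorKO 2 and RaptorKO 4. The difference was 0.32 (SE 0.14). The other Nr1d2 probe set read 6.36, 6.63, 6.42 and 6.68 in WT and 6.81, 7.32, 7.01 and 6.87 in RaptorKO. Its groups did not overlap, as on the main probe sets of 8.82% of all tested genes. On this other Nr1d2 probe set the difference was 0.48 (SE 0.13), or 1.39-fold. Both probe sets thus had the higher mean in RaptorKO.

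Clock genes outside the members were taken from 3 lists with 36 names, of which 25 were tested, and 0 were called in either direction (limma, Benjamini-Hochberg adjustment over 11413 genes). At an unadjusted p under 0.05 there were 3 of the 25, Rora, Timeless and Csnk1a1, where 13.0% of all tested genes lay under it, so the count is near the background. The median difference was 0.051, and over all tested genes it was -0.0092. The median size of a difference regardless of sign was 0.090 for these genes and 0.108 for all tested genes.

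**Figure D2:**
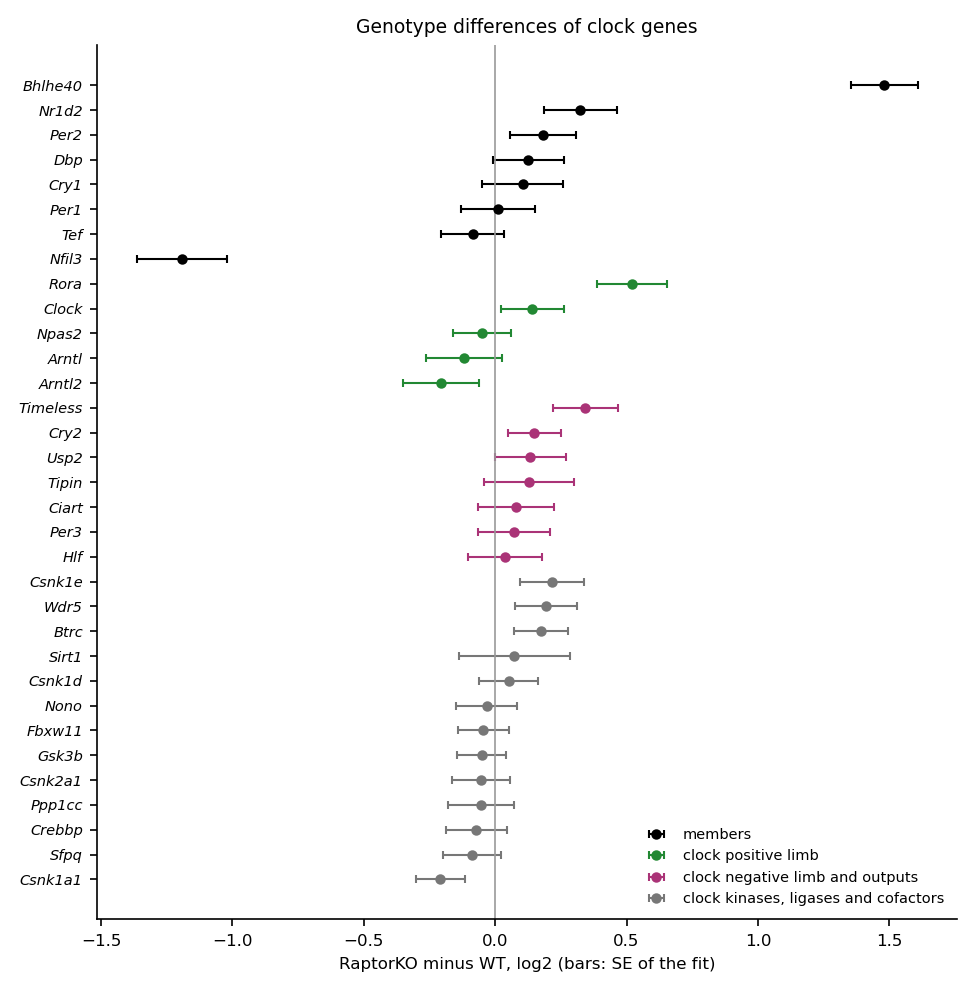
Difference in log2 intensity, RaptorKO minus WT, for the 8 tested members (black) and 25 other clock genes coloured by list; bars are the SE of the limma fit over 4 arrays against 4. Bhlhe40 lies at 1.48 and Nfil3 at -1.19, and both were chosen by this contrast. The other clock genes, not chosen by it, range from -0.21 to 0.52, with Rora the highest.

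In the positive limb, Rora, which encodes the activator ROR-alpha that competes with the REV-ERB receptors for ROR elements, read 7.45, 7.43, 7.72 and 7.99 in WT and 8.01, 8.25, 8.19 and 8.23 in RaptorKO. The groups did not overlap, but RaptorKO 1 was only just above WT 4. The difference was 0.52 (SE 0.13, limma adjusted p = 0.0802), or 1.43-fold, and did not pass the test. Over the alternatives its adjusted p ranged from 0.0391 to 0.261. Of the 5 Rora probe sets, 3 differed by 0.52, 0.63 and 0.68, 1 differed by -0.030, and the remaining dim 1 lay under the filter.

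The partners at the core of the loop differed less. Clock averaged 6.11 ± 0.18 on the WT arrays and 6.25 ± 0.15 on the RaptorKO arrays (SD, n = 4; difference 0.14, SE 0.12), and its 4 probe sets differed by between 0.073 and 0.19, the dimmest under the filter. Arntl, the BMAL1 gene, had means of 5.72 ± 0.18 and 5.60 ± 0.28 (difference -0.12, SE 0.15), but its other probe set differed by 0.071, so its direction depended on the probe set. Arntl2 differed by -0.21 and Npas2, a paralogue of Clock, by -0.050. None of these 4 passed the test.

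Of the negative limb and output genes outside the members, all 7 tested had a positive difference. They ranged from 0.038 to 0.34 with a median of 0.13. Over all tested genes 5435 of 11413 differences were positive. Of the 7, 0 were called (limma), and 1, Timeless, had an unadjusted p under 0.05, as did 13.0% of all tested genes. Timeless, better known for its role at replication forks, differed by 0.34 (SE 0.12, limma adjusted p = 0.231), and Cry2 by 0.15 (SE 0.10, limma adjusted p = 0.617). The other Timeless probe set differed by 0.069. The kinases, ligases and cofactors that set the stability and activity of clock proteins had 13 tested genes, 5 positive and 8 negative, with a median of -0.045. Csnk1a1, which encodes casein kinase 1 alpha, had the smallest p of this list. It differed by -0.21 (SE 0.09, limma adjusted p = 0.377), and its other probe sets by -0.27, -0.012 and -0.029. Csnk1e, whose kinase phosphorylates PER proteins, differed by 0.22 (SE 0.12, limma adjusted p = 0.511).

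Replicates 1 and 2 of both genotypes differed from replicates 3 and 4 in sex-linked transcripts. Xist, expressed from the inactive X chromosome, read 10.88 to 11.18 in replicates 1 and 2 and 5.04 to 5.62 in replicates 3 and 4, and the Y-linked gene Kdm5d read at most 4.39 in the former and at least 8.22 in the latter. The sets also differed in the immediate early genes Fos (1.18, limma adjusted p = 0.00382) and Fosb (1.92, limma adjusted p = 0.00324) and in the macrophage complement genes C1qa (1.27, limma adjusted p = 0.0017) and C1qc (1.34, limma adjusted p = 0.00468), all higher in replicates 3 and 4. Both genotypes hold 2 arrays of each set, so the sets could be compared independently of the contrast that chose the members. Of the 8 tested members, 0 differed between the sets (limma adjusted p from 0.459 to 0.992), where 0.158% of all genes were called. Without adjustment Cry1 and Nr1d2 fell under 0.05 in that limma fit, as did 8.32% of all genes. Replicates 3 and 4 minus replicates 1 and 2 gave -0.35 (SE 0.12) for Cry1 and 0.30 (SE 0.11) for Nr1d2.

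The genotype difference was also set side by side in the 2 sets. Bhlhe40 differed by 1.59 within replicates 1 and 2 and by 1.38 within replicates 3 and 4. Nfil3 differed by -1.24 and -1.14. Nr1d2 differed by 0.49 and 0.15, Dbp by 0.31 and -0.052, Cry1 by 0.28 and -0.075, and Per1 by 0.12 and -0.096. The last 3 genes changed sign between the sets, yet no member passed the test of the difference between sets (limma interaction, adjusted p from 0.514 to 0.938, lowest unadjusted p = 0.118). Over all genes 0% passed, and 11.4% were under an unadjusted p of 0.05.

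**Figure D3:**
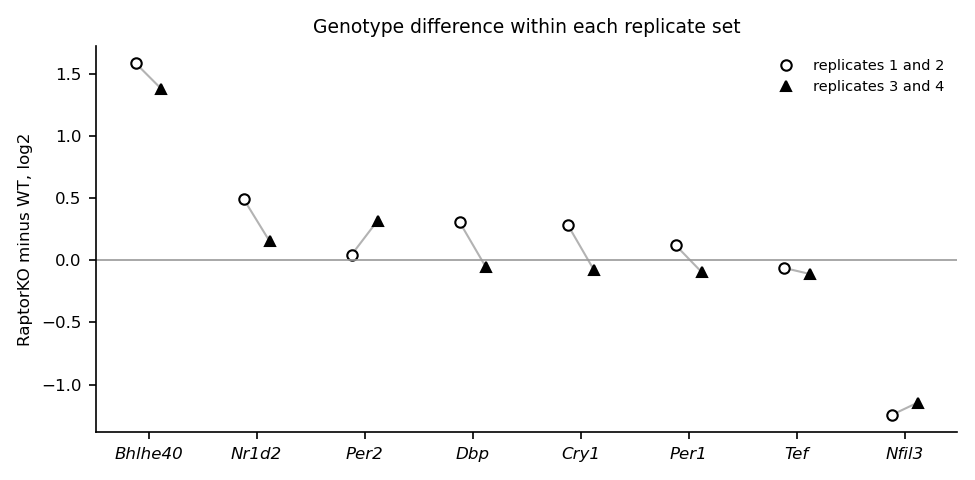
Difference in log2 intensity, RaptorKO minus WT (vertical axis), for the 8 tested members within replicates 1 and 2 (open circles) and within replicates 3 and 4 (filled triangles), each from 2 arrays against 2. Bhlhe40 stays between 1.38 and 1.59 and Nfil3 between -1.24 and -1.14, while Dbp, Cry1 and Per1 lie on either side of 0.

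The genes whose pattern over the 8 arrays came closest to Bhlhe40 were found by centring each gene on its mean and taking the root mean squared difference in log2 intensity, over 10721 named genes. The closest was Uap1l1, a relative of a UDP-N-acetylhexosamine pyrophosphorylase, at 0.18, with means of 6.90 in WT and 8.08 in RaptorKO. Nrgn, which encodes the calmodulin-binding protein neurogranin, followed at 0.23 with 5.08 and 6.48. Nlgn2, a neuroligin adhesion gene, lay at 0.24 with 5.91 in WT and 1.10 more in RaptorKO, and Lad1, the gene of the basement membrane protein ladinin, at 0.26 with 7.10 and 8.48. Bhlhe40, Uap1l1, Nlgn2 and Lad1 were lowest in WT 2, and Nrgn in WT 3.

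Closest to Nfil3 were Gbp3, an interferon-inducible GTPase, at 0.19 with means of 7.66 in WT and 6.55 in RaptorKO, and H2-Ob, the beta chain of a modulator of class II antigen loading, at 0.23 with 7.49 and 6.48. The sulfotransferase gene Chst2 lay at 0.23 with 7.93 and 6.45, and Map3k5, the stress-activated kinase ASK1, at 0.28 with 7.76 and 6.98. For Nfil3 and each of these 4 genes, RaptorKO 2 or RaptorKO 3 gave the lowest value of the 8 arrays. This measure picks genes with a like size of difference, so these 8 genes also differ between genotypes by construction.

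**Figure D4:**
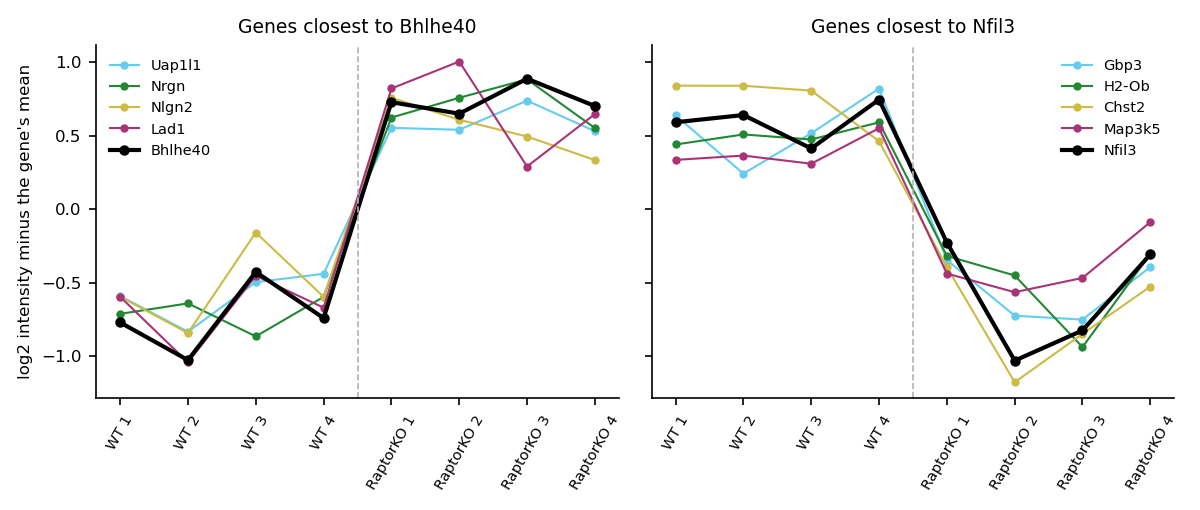
Log2 intensity minus each gene's mean over the 8 arrays (vertical axis), for Bhlhe40 (left, black) and Nfil3 (right, black) and the 4 genes closest to each by root mean squared difference (coloured); each point is 1 array, and the dashed line parts WT from RaptorKO. The closest genes, Uap1l1 at 0.18 and Gbp3 at 0.19, follow the step between genotypes.

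T cell genes that the literature ties to BHLHE40 or NFIL3 were dim in part. Of 19 listed genes, 17 had a probe set and 11 were tested; the cytokine genes Il10, Ifng, Csf2, Il4, Il13 and Il17a did not pass the filter. Of the 11, 0 were called in either direction (limma), with 3 at an unadjusted p under 0.05, beside 13.0% of all tested genes, and the median was -0.054. Those 3 were the transcription factor genes Irf4 (-0.39, SE 0.11, limma adjusted p = 0.133), Id3 (-0.37, SE 0.12, limma adjusted p = 0.183) and Prdm1 (-0.36, SE 0.16, limma adjusted p = 0.35). Irf4 passed with the mean of its 2 probe sets (-0.49, limma adjusted p = 0.0241; range over the alternatives 0.0241 to 0.428). Its dimmer probe set differed by -0.59.

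Bhlhe40 and Nfil3 are both known to respond to T cell activation, so 14 immediate early genes of T cell receptor signalling were taken as well. All 14 were tested and 0 were called (limma), with 4 at an unadjusted p under 0.05, beside 13.0% of all tested genes, and a median of 0.011. Nr4a3, an orphan nuclear receptor gene, differed by 0.65 (SE 0.16, limma adjusted p = 0.0723) and by 0.47 to 0.65 over its 3 probe sets. Its adjusted p ranged from 0.0283 to 0.253 over the alternatives. The other genes under that unadjusted p were also higher in RaptorKO. Nr4a1 differed by 0.49 (SE 0.16, limma adjusted p = 0.173) and Nr4a2 by 0.38 (SE 0.15, limma adjusted p = 0.2935). Dusp2 differed by 0.24 (SE 0.10, limma adjusted p = 0.3015). Egr1, Egr2 and Egr3 differed by between 0.010 and 0.052. Fos differed by -0.56 (SE 0.37, limma adjusted p = 0.603), with 8.74, 8.26, 9.61 and 9.51 in WT 1 to WT 4 and 7.65, 7.998, 9.04 and 9.20 in RaptorKO 1 to RaptorKO 4. Fos was higher in replicates 3 and 4 of both genotypes, a shift that widens the SE of this fit, which has no set term. With a set term 0 of the 14 genes were called as lower (limma). Within each replicate set both RaptorKO arrays lay below both WT arrays.

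All 8 regulatory T cell markers were above the filter's level, and Foxp3 read 10.79 to 11.04 over all arrays. Of these 8, 4 differences were positive and 4 negative, and 0 were called (limma). Ctla4 (-0.32), Cd4 (-0.22) and Ikzf2 (0.21) had an unadjusted limma p under 0.05, as did 13.0% of all tested genes. Their groups did not overlap, as in 8.82% of all tested genes. Array medians lay between 5.21 and 5.29. Markers of other cells moved with genotype in part. Of 12 myeloid markers 11 had a higher mean in RaptorKO. The 9 that were tested all had a positive difference, with a median of 0.44. In the limma fit without a replicate set term 0 were called. There 3, Lyz2, Fcer1g and Tyrobp, had an unadjusted p under 0.05, as did 13.0% of all tested genes. C1qa (0.68, SE 0.39) and C1qc (0.44, SE 0.42) also differed between the replicate sets, and that shift widens their SE in this fit. Genotype calls for these markers with a set term were not examined. Adgre1 and Itgam lay under the filter's percentile on every array. The summed log2 level of the 12 was 60.1 and 65.2 in WT 1 and 2 against 65.8 and 67.1 in RaptorKO 1 and 2, and 69.5 and 68.3 in WT 3 and 4 against 73.5 and 73.3 in RaptorKO 3 and 4. Within each replicate set both RaptorKO sums thus exceeded both WT sums, and over all arrays the genotypes overlapped.

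Of 7 markers of CD8 T and natural killer cells, 3 had a higher mean in RaptorKO. Of the 5 tested 0 were called (limma) and 3 had an unadjusted p under 0.05, as did 13.0% of all tested genes. Cd8a differed by -1.03 (SE 0.44) and Cd8b1 by -0.77 (SE 0.21), whereas Nkg7, a cytotoxic granule gene, differed by 0.87 (SE 0.24, limma adjusted p = 0.106). The Nkg7 groups did not overlap, as in 8.82% of all tested genes. Ncr1 and Klrb1c, markers of natural killer cells, lay under the percentile on every array. The summed level of the 7 was 37.3 to 44.3 in WT and 38.9 to 40.8 in RaptorKO. B cell, dendritic cell and erythroid sums overlapped between genotypes. Of the 2 erythroid markers with a probe set, the haemoglobin gene Hba-a1 differed by 1.10 (SE 0.35, limma adjusted p = 0.159). The other, Alas2, differed by -0.079 (SE 0.14, limma adjusted p = 0.897). In these bulk samples a change in the share of a cell type and a change in RNA per cell cannot be told apart, and the part of other cells in the differences of Bhlhe40, Nfil3 and the other members was not tested.

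The targeted gene Rptor read 6.75 to 7.03 in WT and 6.47 to 6.95 in RaptorKO, and where its probe sets lie relative to the deleted part is not known here. The genotypes are therefore those of the labels.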

How the data were processed

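The deposited values are log2 intensities per probe set, made with RMA, per the submitters' processing notes; its version and a genome build are not given in the sources used here. RMA normalizes between arrays, so differences in total RNA are not visible. Groups and replicate numbers came from sample titles. The table held 45141 probe sets: 28898 listed 1 gene in the platform annotation, 551 several and 15692 none. Symbols were updated through Entrez identifiers (28689 matched). Genotypes were compared with limma 3.58.1 in R 4.3.3 (lmFit, eBayes, no covariates; threshold 0.05 after Benjamini-Hochberg adjustment over 11413 genes), and the replicate sets with a set term or an interaction. SEs of second probe sets come from the same fit on every probe set. Members, lists and tests were chosen with earlier results of these data known. Named genes were all members, called list genes (at most 4) or the 2 with the smallest p of a list. Positive limb genes and the 4 genes closest to Bhlhe40 and to Nfil3 were also named. Id3, Prdm1, Csnk1e, Nr4a1, Nr4a2, Dusp2, the Egr genes, Fos, Fosb and the cell markers singled out were named after their values were seen. The fit was tested on simulated data with 11413 genes, 4 arrays against 4: it called 100% of 100 genes shifted by 1 (log2) and 59% of 100 shifted by 0.5, and 6.47% of its calls were false. The simulated noise was drawn independently for each gene and array, with no shift between replicate sets. These rates may therefore differ for the real arrays. The number of arrays limits the precision. Plots used Python 3.11.15 and matplotlib 3.10.9.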

Additional observations from a re-analysis of the deposited data

How the results depend on the processing

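The differences of Bhlhe40 and Nfil3 kept their direction in all 21 alternatives, at 1.38 to 1.59 and -1.32 to -1.05 (1.39 to 1.59 and -1.32 to -1.05 leaving out single arrays). Nfil3 was not called within replicates 1 and 2 or within replicates 3 and 4 (0 members lower in each), and Bhlhe40 was called in all. Both genes were chosen by this contrast and the alternatives refit the same arrays, so nothing is read from these calls. Over all genes 224 were called, 370 with an intensity trend, 9 and 85 within replicates 1 and 2 and within replicates 3 and 4, and 101 to 257 leaving out single arrays. Of the other clock genes, 1 became called as higher with an intensity trend, with a term for the replicate set and without WT 4 (0 to 1 leaving out single arrays); each time it was Rora (0.52, 0.52 and 0.63; limma adjusted p = 0.0479, 0.0443 and 0.0391). Of the linked T cell genes, 1 became called as lower with the mean of probe sets, Irf4. Among the immediate early genes Nr4a3 became called with quantile normalization, 75th percentile centring, an intensity trend, array weights and the set term. Dbp, Cry1 and Per1 changed sign in 2, 2 and 5 alternatives. The replicate block called 175 genes and the same 2 members; same-numbered arrays deviated with correlations of -0.153 to 0.157, not every array correlated best with its own number, and the labels do not pair them. Dim signal limits Bhlhe41, the lower Nfil3 values and most cytokine genes.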
